A study of Mus musculus with 8 samples.

Results

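Expression of 6 genes of canonical WNT signalling was followed across androgenetic, parthenogenetic and fertilized mouse embryonic stem (ES) cells: the ligand Wnt6, the target genes Sp5, Axin2, Lef1 and Nkd1, and Ctnnb1, which encodes beta-catenin. They were taken as every probe that the array's annotation assigns to one of these 6 symbols. The annotation held 6 probes for 5 of the 6 genes, out of 8808 annotated genes in all, and none for Nkd1, which is therefore without a value. Of the 6 probes, 5, for 4 genes, were detected often enough to be kept among 8221 measured genes, and the Lef1 probe was not. The set was chosen by measured values, since Sp5 and Wnt6 are among the genes that differed between the androgenetic and fertilized arrays. Their differences between androgenetic cells and the other cells are therefore given as descriptions with no test.

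Androgenetic cells carry genomes from the father alone and parthenogenetic cells genomes from the mother alone, while fertilized cells carry a genome of each parent. All were derived from blastocysts of strain B6129F1. Androgenetic cells, 3 arrays at passages 6, 7 and 8, were labelled female and male with both X and Y chromosomes. Parthenogenetic cells, 2 arrays at passages 6 and 7, were labelled female. Fertilized cells, 3 arrays at passages 6, 7 and 8, had the same sex label as androgenetic cells. RNA was read on single-colour Illumina BeadChips, in which a probe counts as detected when its signal stands above the array's negative controls (detection p under 0.01). The labels do not say whether passages were separate lines, so all p-values measure the spread between passages, which may be technical.

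WNT proteins are secreted lipid-modified ligands that bind Frizzled receptors and LRP coreceptors. Without a ligand, a cytoplasmic complex built on AXIN and APC marks beta-catenin for destruction. With a ligand, beta-catenin accumulates, enters the nucleus and activates target genes through TCF/LEF factors. AXIN2 and NKD1 are targets that act back on the pathway as inhibitors, and Sp5 is a zinc finger transcription factor gene known as a direct target. In mouse ES cells, WNT signalling is known to favour self-renewal, and in the embryo it is needed to form the primitive streak.

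The sequence around each gene's start is shown for the 3 genes with the widest separation between androgenetic and other cells. Each window runs from 250 bases before to 50 bases after the RefSeq transcript start (RefSeq, GRCm38.p6), on the plus strand. Capitals mark the core letters of the TCF/LEF motif, CTTTG, or its complement on the other strand. The windows are Sp5 at chr2:70474673-70474972, Axin2 at chr11:108920099-108920398 and Wnt6 at chr1:74771642-74771941.
Sp5: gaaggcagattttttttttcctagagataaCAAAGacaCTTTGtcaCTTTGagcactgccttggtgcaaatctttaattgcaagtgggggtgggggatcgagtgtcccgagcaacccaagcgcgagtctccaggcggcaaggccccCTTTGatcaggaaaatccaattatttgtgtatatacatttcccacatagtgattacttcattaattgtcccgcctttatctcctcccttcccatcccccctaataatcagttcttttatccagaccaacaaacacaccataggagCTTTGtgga
Axin2: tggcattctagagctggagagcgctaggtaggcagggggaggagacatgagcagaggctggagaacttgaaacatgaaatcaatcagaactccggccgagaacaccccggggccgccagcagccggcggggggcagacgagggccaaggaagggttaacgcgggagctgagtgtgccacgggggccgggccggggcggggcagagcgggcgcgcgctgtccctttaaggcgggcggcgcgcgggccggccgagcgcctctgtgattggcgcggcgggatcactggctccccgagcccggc
Wnt6: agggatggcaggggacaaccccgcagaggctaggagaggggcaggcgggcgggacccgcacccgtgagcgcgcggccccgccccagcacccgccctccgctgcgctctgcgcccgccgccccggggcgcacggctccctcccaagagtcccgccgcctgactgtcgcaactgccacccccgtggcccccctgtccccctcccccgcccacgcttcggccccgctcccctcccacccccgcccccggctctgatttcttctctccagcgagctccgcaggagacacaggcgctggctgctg

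The Sp5 window held 5 core matches on both strands, beginning at positions -220, -212, -204, -104 and 42 counted from the start. Of these, 2 extended to one of the longer forms searched on both strands, in which the core is followed by AA, AT, TA or TT, so that each overlaps a core match. They were the form with TT on the minus strand, from -222 to -216, and the form with AT on the plus strand, from -104 to -98. No core match lay in the windows of Axin2 and Wnt6. Of 32851 promoter windows of this length, 53.9% held at least 1 core, 0.286% at least 5, and 1.94% at least 2 of the longer forms. Base composition also differed, with 45% G and C in the Sp5 window, 70% in that of Axin2 and 76.7% in that of Wnt6, against a median of 52.7% over all windows. Lef1 has 4 annotated starts with 1 to 3 core matches each, while the Nkd1 window and both Ctnnb1 windows held none. These matches are letters in short windows, and binding was not measured.

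**Figure D1:**
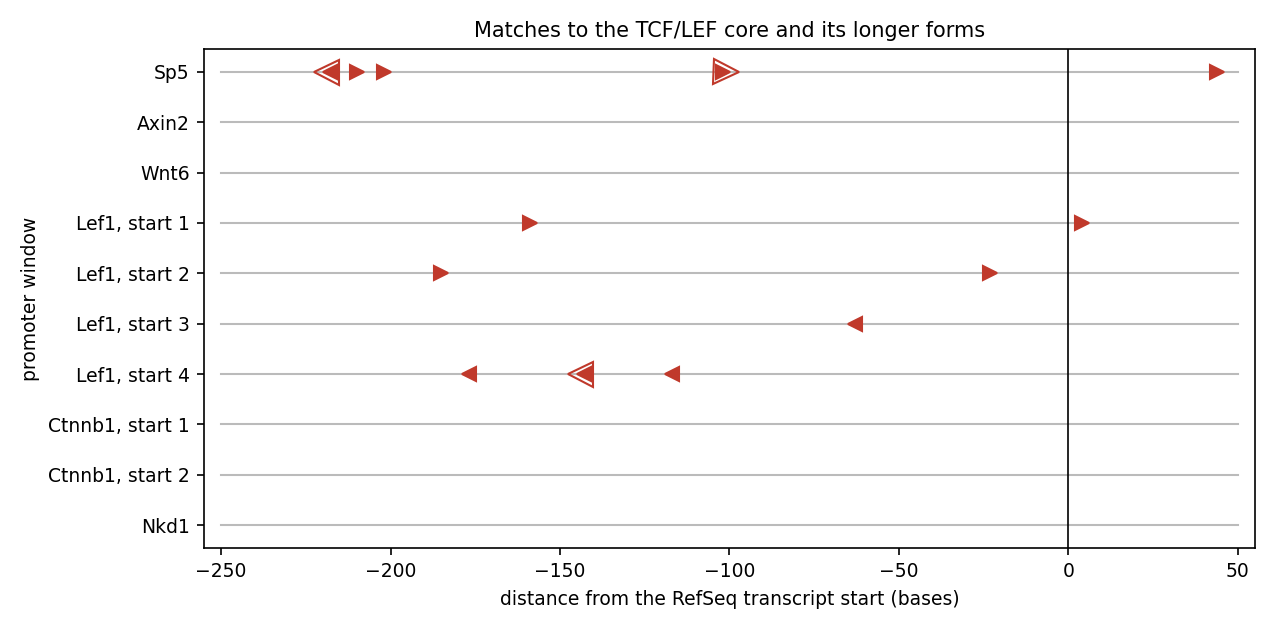
Positions of core matches (filled triangles) and longer matches (open triangles) relative to the RefSeq transcript start, in bases, for every annotated start of the 6 genes. Triangles point right on the plus strand and left on the minus strand, and the Sp5 window holds the most, with 5 core matches.

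Wnt6, a secreted ligand known from embryonic epithelia, was high in androgenetic cells and not detected in the others. Its normalised log2 signals were 11, 11.05 and 11.07 in androgenetic cells, 6.30 and 6.52 in parthenogenetic cells, and 6.47, 6.62 and 6.10 in fertilized cells. The androgenetic arrays stood well apart, while the parthenogenetic and fertilized arrays overlapped and lay below the level where detection begins on each array, 6.60 to 6.85. The log2 difference was 4.64 ± 0.13 (SE) between androgenetic and fertilized cells and 4.63 ± 0.15 between androgenetic and parthenogenetic cells. Set against the level where detection begins, Wnt6 was at least 20.3-fold and at least 21.3-fold higher in androgenetic cells. These bounds depend on the background correction, since the difference from fertilized cells was 3.68 with no correction, 4.17 with a larger offset and 3.71 in the authors' deposited log2 table. Because each sample is RNA of a whole culture, more cells expressing a gene and more RNA per cell cannot be told apart here or below.

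Sp5 was likewise far higher in androgenetic cells than in the others. Its log2 signals were 12.73, 12.83 and 12.70 in androgenetic cells, 6.66 and 6.70 in parthenogenetic cells, and 5.92, 6.10 and 6.47 in fertilized cells. Before normalisation these were linear signals of 8316, 8569 and 7430 in androgenetic cells, 197 and 160 in parthenogenetic cells, and 130, 139 and 171 in fertilized cells. All androgenetic and parthenogenetic arrays detected Sp5 and no fertilized array did, although the parthenogenetic signals lay 0.056 and 0.048 above the level where detection begins. Sp5 was at least 66.6-fold higher in androgenetic than in fertilized cells (log2 difference 6.59 ± 0.13 SE) and 67.3-fold higher than in parthenogenetic cells (6.07 ± 0.15). The size depended on the background correction: the difference from fertilized cells was 5.47 with no correction and 5.51 in the authors' deposited log2 table.

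Axin2, the feedback scaffold of the destruction complex, was detected on every array and took a different level in each kind of cell. Its log2 signals were 10.73, 10.82 and 10.64 in androgenetic cells, 6.90 and 6.90 in parthenogenetic cells, and 8.02, 8.04 and 7.90 in fertilized cells. The order was androgenetic above fertilized above parthenogenetic, with no overlap between any of the groups (as for 86.1% of all genes between androgenetic and parthenogenetic, and 59.6% between parthenogenetic and fertilized arrays). Axin2 was 6.69-fold higher in androgenetic than in fertilized cells (log2 difference 2.74 ± 0.079 SE) and 14.2-fold higher than in parthenogenetic cells (3.83 ± 0.088). The probes of Wnt6, Sp5 and Axin2 thus all separated the androgenetic from the fertilized arrays without overlap. Of all 8221 genes, 77.9% did the same.

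Lef1, a TCF/LEF factor gene and itself a target, could not be measured. Its log2 signals were 6.09, 5.91 and 6.21 in androgenetic cells, 6.52 and 6.11 in parthenogenetic cells, and 6.35, 5.77 and 6.06 in fertilized cells, with detection p between 0.0150 and 0.105. The groups overlapped and every array was below detection, so no direction can be read and no fold is given.

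Ctnnb1, the transducer through which WNT target genes are switched on, was detected on all arrays, and its group means lay within 0.46 of each other on the log2 scale on both probes. The brighter of its 2 probes had log2 signals of 13.80, 13.91 and 13.83 in androgenetic cells, 13.41 and 13.38 in parthenogenetic cells, and 13.26, 13.30 and 13.92 in fertilized cells. The dimmer probe had 12.19, 12.25 and 12.14 in androgenetic cells, 11.88 and 11.73 in parthenogenetic cells, and 11.76, 11.62 and 12.19 in fertilized cells. On both probes the androgenetic arrays lay above the parthenogenetic ones, and fertilized replicate 3 reached the androgenetic level while the other 2 fertilized arrays did not. The log2 difference between androgenetic and fertilized cells was 0.35 ± 0.16 (SE) on the brighter and 0.34 ± 0.14 on the dimmer probe, which became 0.57 and 0.50 without fertilized replicate 3. It was 0.24 and 0.29 without fertilized replicate 1, and 0.26 and 0.22 without fertilized replicate 2. Between androgenetic and parthenogenetic cells it was 0.46 ± 0.18 and 0.39 ± 0.15. The 2 probes moved together over the 8 arrays (Pearson's r 0.966, a description over arrays of 3 kinds).

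**Figure D2:**
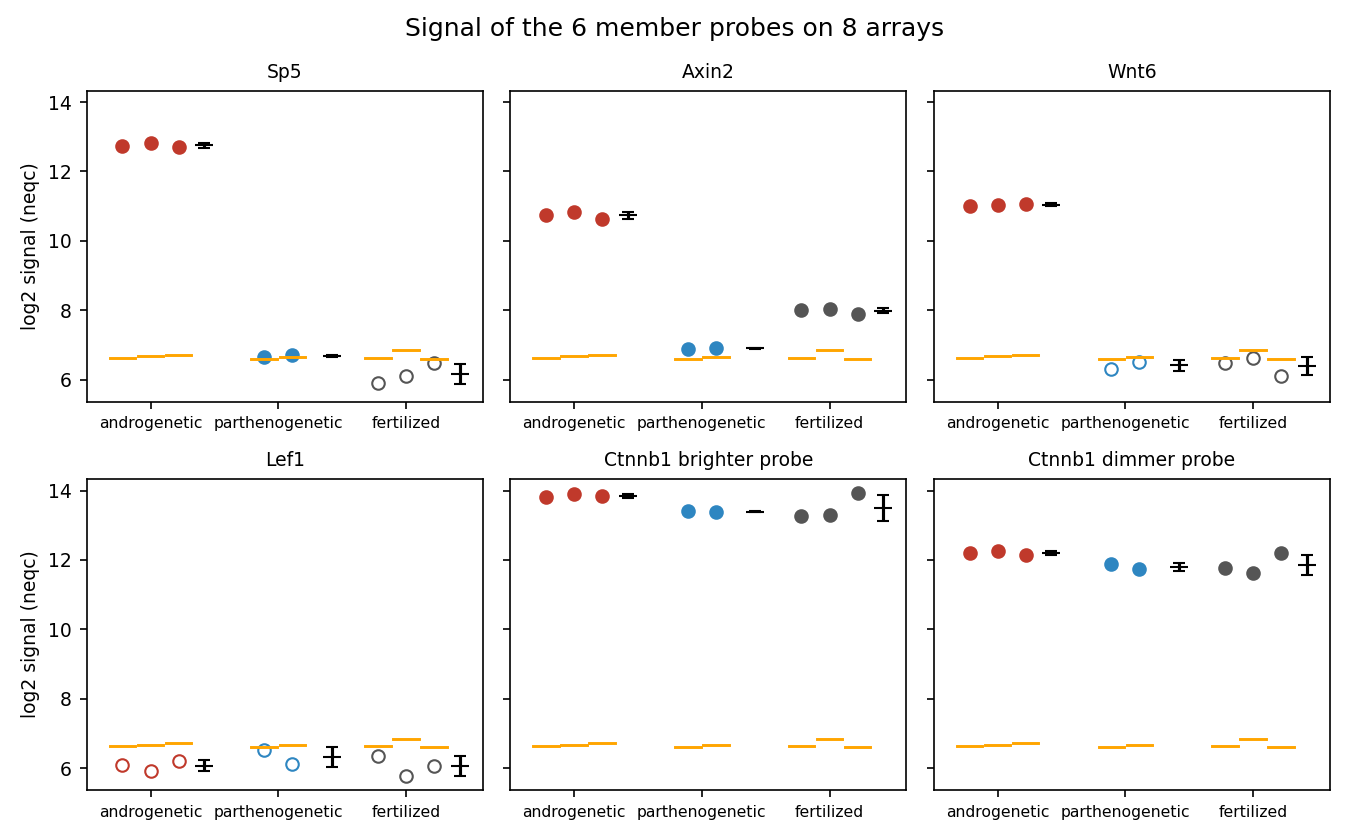
Normalised log2 signal of each of the 6 probes on the 8 arrays, by kind of cell. Filled circles are detected (detection p under 0.01), open circles are not, orange bars show the level where detection begins on that array, and black marks give the mean and SD of each group. Sp5 and Wnt6 are far above detection in androgenetic cells alone, Axin2 has 3 separate levels, and Lef1 is below detection throughout.

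The measured genes nearest the members on the chromosome, among the 3 RefSeq genes on either side, were examined next. Their calls stand beside 74.7% of all genes called between androgenetic and fertilized cells, and 40.6% between parthenogenetic and fertilized cells. Beside Sp5, Gorasp2, a Golgi protein gene, was 1.57-fold higher in androgenetic than in fertilized cells, and Gad1, which makes the transmitter GABA, was undetected in androgenetic and parthenogenetic cells, with log2 differences of -1.35 and -1.75 from fertilized cells (at least 1.45-fold lower for the first of these). Beside Axin2, Cep112 (0.19) and Gna13 (0.50) were higher on the log2 scale in androgenetic cells and Amz2 was lower (-0.93), all against fertilized cells. Beside Wnt6, Ttll4 did not pass the test (-0.00017, limma adjusted p = 0.998) and Cyp27a1 was lower, at -0.91. The gene next to Wnt6, its relative Wnt10a, had no annotated probe. Beside Ctnnb1, Trak1 was lower, at -0.74, and Eif1b and Ulk4 did not pass (0.11 and -0.47, adjusted p = 0.340 and 0.0923). In parthenogenetic against fertilized cells Cep112 was lower by the test, at -0.32, as Axin2 was, and so were Amz2 and Ttll4. No test is given for Gad1, since it was kept through the fertilized arrays alone.

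**Figure D3:**
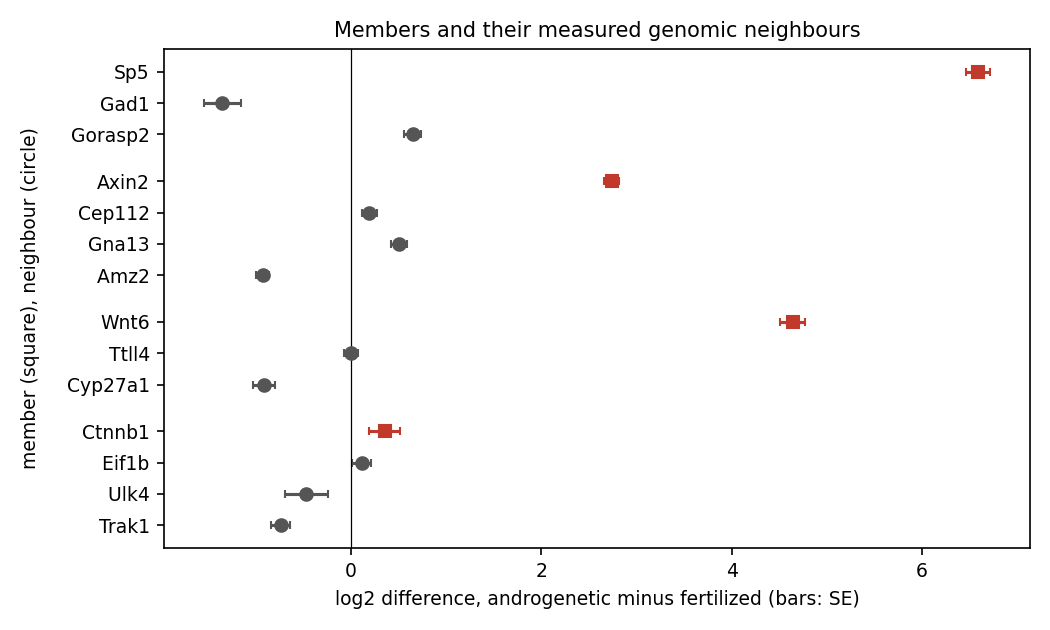
Log2 difference between androgenetic and fertilized cells, with its SE, for 4 members (squares) and the measured genes among the 3 on either side (circles). Sp5, Axin2 and Wnt6 stand at 6.59, 2.74 and 4.64, and their measured neighbours between -1.35 and 0.65.

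Parthenogenetic cells were then compared with fertilized cells, the comparison that did not choose these genes, although the fertilized arrays are shared with the one that did. Axin2 was lower in parthenogenetic cells, Sp5 was slightly higher, Ctnnb1 did not pass the test and Wnt6 had no measured level in either group. Axin2 averaged 6.90 ± 0.0043 in parthenogenetic cells (SD, n = 2) and 7.99 ± 0.075 in fertilized cells (SD, n = 3). It was 2.12-fold lower (log2 difference -1.09 ± 0.088 SE, limma's moderated test with Benjamini-Hochberg adjustment over all kept probes, adjusted p = 4.44e-05), and that call held in all 18 alternatives run.

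Sp5 also passed the test, and its parthenogenetic level lay above the fertilized one by 0.52 ± 0.15 on the log2 scale (SE, limma adjusted p = 0.0218). No fold is given, since it was undetected in fertilized cells. The difference was 0.25 with no background correction, 0.37 with a larger offset and 0.28 in the authors' deposited log2 table. The call was lost without parthenogenetic replicate 1 (0.54, adjusted p = 0.0829), parthenogenetic replicate 2 (0.50, adjusted p = 0.106) or fertilized replicate 1 (0.40, adjusted p = 0.0514), and with these 2 groups fitted alone (0.52, adjusted p = 0.0640). Neither the brighter (-0.10 ± 0.18, limma adjusted p = 0.684) nor the dimmer (-0.055 ± 0.15, adjusted p = 0.800) Ctnnb1 probe passed the test. Without fertilized replicate 3 the brighter Ctnnb1 probe changed sign to 0.11. Wnt6 was kept through the androgenetic arrays alone and was undetected in both of these groups, so its values here compare background with background. Axin2 and Sp5 were thus the 2 probes called of 5 kept, in a comparison that called 40.6% of all measured genes.

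Markers of other cell types also differed between parthenogenetic and fertilized cells. The counts below stand beside 20.3% of all genes called higher and 20.3% called lower. Of 8 primitive endoderm markers 6 were lower and none higher in parthenogenetic cells, where Gata6, Pdgfra and Lamb1 were undetected, with summed normalised signals of 2178 to 2420 in parthenogenetic and 4809 to 5929 in fertilized cells. Of 13 naive pluripotency genes 11 were higher and 1 lower, and higher calls also prevailed among neural (4 of 5), trophectoderm (5 higher and 2 lower of 9), fibroblast (3 of 5) and primitive streak markers (2 of 3). Of the genes in these lists, Eomes, Msx1 and Nefm were undetected in both groups. Only Eomes of these was called, and it is among the higher calls of both the trophectoderm and the primitive streak lists. No direction is read for it. The part of these markers in the Axin2 and Sp5 differences was not tested.

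Genes whose pattern over the 8 arrays was most like that of a member were ranked by Pearson's r. The arrays fall into 3 groups, so r over the 8 of them is a description of the group levels as much as of single arrays. Nearest to Sp5 were Fbxw8 (r = 0.9993), Arap3, Tmem127, Plk2 and Usp47, and 238 of 8217 genes passed 0.99. Fbxw8, for example, averaged 10.32 in androgenetic, 7.05 in parthenogenetic and 6.75 in fertilized cells. Nearest to Axin2 were Sort1 (r = 0.9988), Lmo4, Apaf1, Tmprss2 and Tax1bp3, and 103 genes passed 0.99. Tmprss2, which encodes a membrane serine protease, had the same order as Axin2 at 11.23 in androgenetic cells, 5.40 in parthenogenetic cells, where it was undetected, and 7.28 in fertilized cells. Among the members, r was 0.993 between Sp5 and Wnt6, 0.943 between Sp5 and Axin2, and 0.962 between Axin2 and Wnt6.

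To place the members in their pathway, 115 other WNT genes in 8 lists by role were examined. Of these 58 were annotated and 53 measured, and no gene of the R-spondin module (R-spondins, LGR receptors, Znrf3 and Rnf43) was among them. In androgenetic over fertilized cells, 29 of the 53 were higher and 12 lower at an adjusted p under 0.05, against 35.4% higher and 39.3% lower of all genes (74.7% in either direction). As shares of the 53 these were 54.7% higher and 22.6% lower. At a change of at least 2-fold, 19 were higher and 7 lower, beside 13.2% and 15% of all genes. The median log2 difference was 0.50 over the 53, beside -0.051 over all genes. Among the higher genes, Fzd2, Apcdd1, Dkk1, Msx1, Myc and Cd44 were kept through the androgenetic arrays alone. Their calls therefore set signal against background. The annotation covers only probes of the authors' log2 table, which needed a detection p under 0.05 on 4 or more arrays. So a WNT gene detected on the 3 androgenetic arrays alone can be missing.

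All 3 measured ligands of the other WNT genes were higher in androgenetic than in fertilized cells, beside 35.4% of all genes. Wnt4, a ligand known from kidney and gonad development, had log2 signals of 10.43, 10.33 and 10.35 in androgenetic cells, 7.82 and 7.42 in parthenogenetic cells, and 7.09, 7.01 and 6.81 in fertilized cells. It was 10.6-fold higher in androgenetic than in fertilized cells (3.40 ± 0.12 SE, limma adjusted p = 3.25e-08). Wnt7b was 2.79-fold and Wnt7a 2.42-fold higher. Parthenogenetic cells also had more Wnt4 and Wnt7b than fertilized cells, by 0.65 ± 0.13 and 0.81 ± 0.11 (log2, SE), and Wnt7a did not pass there (0.18, adjusted p = 0.162).

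The 2 genes needed to make and release WNT proteins went opposite ways. Wls, the carrier that takes WNT ligands to the cell surface, had log2 signals of 12.11, 12.19 and 12.02 in androgenetic cells, 8.28 and 8.24 in parthenogenetic cells, and 8.30, 8.15 and 8.46 in fertilized cells. It was 14.0-fold higher in androgenetic than in fertilized cells (3.81 ± 0.095 SE, limma adjusted p = 5.78e-09), with parthenogenetic and fertilized arrays overlapping. Porcn, the enzyme that attaches the lipid, was 3.96-fold lower in androgenetic (-1.99 ± 0.074 SE) and 1.84-fold higher in parthenogenetic than in fertilized cells (0.88 ± 0.082). Its other probe gave -1.16 and 1.27 on the log2 scale for these comparisons. Porcn is on the X chromosome, where the median log2 difference of 278 genes between parthenogenetic and fertilized cells was 0.62, beside -0.019 for the other 7943. The part of that shift in the Porcn difference was not tested.

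Of 9 receptors and coreceptors, 6 were higher and 2 lower in androgenetic than in fertilized cells. These were 66.7% and 22.2%, beside 35.4% and 39.3% of all genes. Fzd10, a Frizzled receptor, was 10.9-fold higher (3.45 ± 0.12 SE, limma adjusted p = 3.55e-08), and by 2.86 on the log2 scale on its other probe. In parthenogenetic over fertilized cells the call on its brightest probe (0.60) was not shared by the other (0.19, limma adjusted p = 0.131). Fzd2, another, had log2 signals of 8.78, 9.06 and 8.96 in androgenetic cells and was undetected in all others, at least 4.72-fold higher than in fertilized cells. Ptk7, a WNT coreceptor with an inactive kinase domain, was 2.95-fold higher. Lrp6, the coreceptor of canonical signalling, ran the other way, with 6.85, 6.47 and 6.91 in androgenetic cells, 6.12 and 6.09 in parthenogenetic cells, and 8.15, 7.64 and 8.25 in fertilized cells. It was detected on all 3 fertilized, 2 of 3 androgenetic and no parthenogenetic arrays. Against fertilized cells it differed by -1.27 ± 0.17 in androgenetic and -1.91 ± 0.19 in parthenogenetic cells (SE, limma adjusted p = 0.000154 and 0.000140).

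Among 10 secreted and surface antagonists, 6 were higher and 1 lower in androgenetic than in fertilized cells. As shares these were 60% and 10%, beside 35.4% and 39.3% of all genes. Notum, which strips the lipid from WNT proteins and is itself a known WNT target, had log2 signals of 10.09, 10.21 and 10.04 in androgenetic cells, 9.49 and 9.48 in parthenogenetic cells, and 6.82, 6.68 and 6.62 in fertilized cells. Both kinds of uniparental cell were far above fertilized cells, in which 2 of 3 arrays detected it, by 3.40 ± 0.082 and 2.77 ± 0.092 (SE, limma adjusted p = 5.35e-09 and 5.66e-07). Notum thus did not share the order of Axin2, which was lowest in parthenogenetic cells. Sfrp1, a decoy that binds WNT ligands, was 4.63-fold lower in androgenetic and 1.82-fold higher in parthenogenetic than in fertilized cells. Tpbg, a membrane glycoprotein gene, was 4.39-fold higher in androgenetic than in fertilized cells, and Apcdd1, a membrane-bound WNT inhibitor, at least 2.12-fold higher.

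The cytoplasmic relay and destruction complex was the list in which lower calls prevailed, 5 lower and 1 higher of 9 in androgenetic against fertilized cells. That was 66.7% called in either direction, beside 74.7% of all genes, and 55.6% lower, beside 39.3%. Nkd2, the paralogue of Nkd1 and an inhibitor of Dishevelled, was undetected in androgenetic cells at 6.10, 5.87 and 5.88, and had 7.52 and 7.59 in parthenogenetic cells and 8.04, 8.12 and 8.04 in fertilized cells. It was at least 2.63-fold lower in androgenetic and 1.43-fold lower in parthenogenetic than in fertilized cells (limma adjusted p = 6.84e-08 and 0.00292). Frat2, which keeps GSK3 from beta-catenin, was 3.73-fold lower in androgenetic and 1.94-fold lower in parthenogenetic cells. Btrc, the ubiquitin ligase subunit that recognises marked beta-catenin, was 2.19-fold lower in androgenetic cells. Csnk1d, a casein kinase gene, was 1.56-fold lower on its brightest probe, but another of its probes was higher by 1.29 on the log2 scale and the mean of its probes was not called (0.038).

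Of 12 nuclear factors, 5 were higher and 2 lower in androgenetic than in fertilized cells, with a median of -0.020. The shares were 41.7% and 16.7%, beside 35.4% and 39.3% of all genes. Tcf7l2, a TCF factor that partners beta-catenin, had log2 signals of 9.41, 9.48 and 9.52 in androgenetic cells, 8.64 and 8.82 in parthenogenetic cells, and 7.76, 7.91 and 7.83 in fertilized cells. It was 3.11-fold higher in androgenetic and 1.86-fold higher in parthenogenetic than in fertilized cells. Bcl9l, a beta-catenin coactivator, was 5.64-fold higher in androgenetic cells, and Tle5, related to the Groucho corepressors, was 1.83-fold lower there and 1.42-fold higher in parthenogenetic cells. Hbp1, a repressor of WNT target genes, was 1.75-fold lower in parthenogenetic than in fertilized cells.

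Set against fertilized cells, androgenetic cells had 7 of 8 further WNT target genes higher and 1 lower. These shares were 87.5% and 12.5%, beside 35.4% and 39.3% of all genes. Of the higher genes, Msx1, Myc and Cd44 were undetected outside androgenetic cells, so their calls set signal against background. The lower gene, Ascl2, was undetected in androgenetic cells. Msx1, a homeobox gene, had log2 signals of 10.76, 10.70 and 10.73 in androgenetic cells, against 5.81 and 6.59 in parthenogenetic cells and 6.28, 6.29 and 6.34 in fertilized cells. It was detected on the androgenetic arrays alone, at least 16.4-fold above fertilized cells. No test is given for Msx1, since it was kept through those arrays alone. Tnfrsf19, a receptor of the TNF family, differed by 4.01 ± 0.077 (SE), and Bmp4, a secreted morphogen, was 6.78-fold higher. Cd44, a cell surface adhesion receptor, was at least 2.22-fold higher and undetected outside androgenetic cells.

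Cdx1 and Ccnd1 had the order of Axin2 in all 3 comparisons, and were singled out after their values were seen. The share of all genes with that order was not counted. Cdx1, a homeobox target, had 7.76, 7.91 and 7.69 in androgenetic cells, 6.77 and 6.37 in parthenogenetic cells, and 7.13, 7.48 and 6.86 in fertilized cells. Parthenogenetic replicate 2 did not detect it, so its level in those cells is near background. Ccnd1, which encodes cyclin D1, had 12.90, 12.82 and 12.82 in androgenetic cells, 12.06 and 12.09 in parthenogenetic cells, and 12.35, 12.47 and 12.26 in fertilized cells. Against fertilized cells, Cdx1 differed by 0.63 ± 0.17 in androgenetic and -0.59 ± 0.19 in parthenogenetic cells, and Ccnd1 by 0.49 ± 0.077 and -0.29 ± 0.086 (SE). Both differences of each gene passed limma's test, with adjusted p = 0.00741 and 0.0339 for Cdx1 and 0.000402 and 0.0284 for Ccnd1. Because both genes were picked by their values, these p-values are descriptions.

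**Figure D4:**
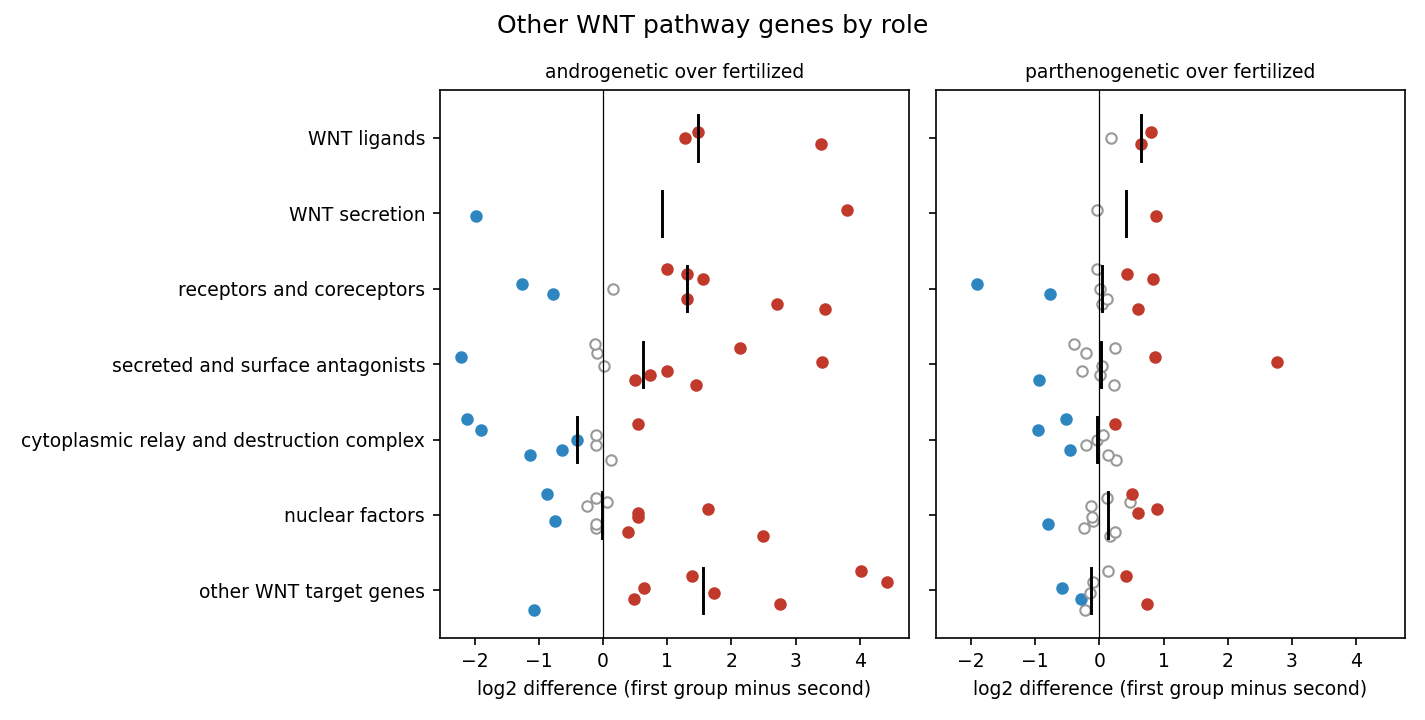
Log2 difference of each of the 53 measured WNT genes other than the members, by role, for androgenetic over fertilized (left) and parthenogenetic over fertilized cells (right). Filled red circles are higher and filled blue circles lower at an adjusted p under 0.05, open circles did not pass, and black bars are list medians. Of the 53 genes, 29 were higher and 12 lower on the left, and 14 were higher and 9 lower on the right.

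In parthenogenetic over fertilized cells these lists gave 14 higher and 9 lower of 53, or 26.4% and 17%, beside 20.3% of all genes in each direction. The median was 0.049 over the 53 and -0.0058 over all genes. A change of at least 2-fold was called for 1 gene upward, Notum, and 1 downward, Lrp6, against 3.27% upward and 2.24% downward of all genes. Among the 8 further target genes, Bmp4 was higher and Cdx1 and Ccnd1 were lower. Of the 23 calls, 2 rest on genes undetected in both groups, Myc (0.41) and Dkk1 (-0.94), for which no direction is read. In androgenetic over parthenogenetic cells, 29 of the 53 were higher and 10 lower, beside 34% and 37.1% of all genes (71.1% in either direction). At 2-fold or more these counts were 17 and 5, beside 12.7% and 14.6%. These 3 comparisons share arrays, so their counts are not independent of each other.

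**Figure D5:**
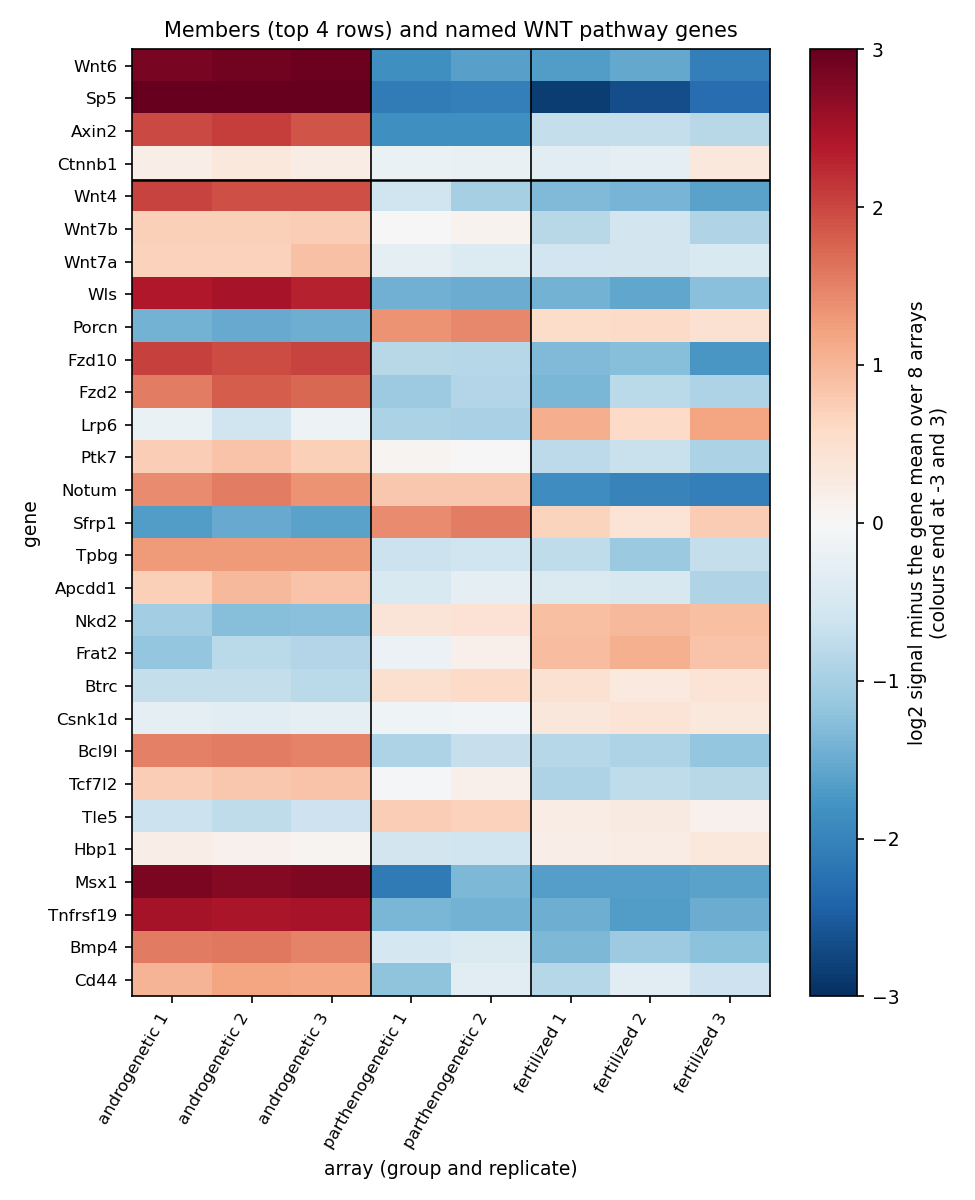
Log2 signal of 4 measured members (above the black line) and of the named WNT genes by role on the 8 arrays, each minus its own mean over the arrays, with colours ending at -3 and 3. Androgenetic arrays are red for most ligands, receptors and targets and blue for Porcn, Sfrp1, Nkd2 and Frat2, while Axin2 is bluest in parthenogenetic cells.

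Markers of other cell types also moved between androgenetic and fertilized cells, beside 35.4% of all genes called higher and 39.3% called lower. These shares also stand beside the streak, fibroblast, neural and endoderm counts that follow. Of 13 measured naive pluripotency genes, 11 were lower and 2 higher in androgenetic than in fertilized cells, with summed normalised signals of 18167 to 18745 in androgenetic, 80992 to 81444 in parthenogenetic and 50996 to 56018 in fertilized cells. Pou5f1, Sox2 and Nanog were detected on all arrays, and Fgf4 and Pecam1 were undetected in androgenetic cells. Trophectoderm markers were higher in 8 of 9 (sums 84830 to 90747 in androgenetic, 28082 to 28225 in parthenogenetic and 22940 to 25615 in fertilized cells), with Eomes undetected outside androgenetic cells. The keratin genes Krt8 and Krt18 were the brightest in the androgenetic sums, averaging 15.68 and 14.45 on the log2 scale.

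All 3 measured primitive streak and mesoderm markers, Gsc, Eomes and Msx1, were higher in androgenetic cells (sums 2840 to 2943 in androgenetic, 268 to 270 in parthenogenetic and 169 to 187 in fertilized cells), and none was detected in fertilized cells. Eomes is also in the trophectoderm list and Msx1 among the WNT targets. Both were kept through the androgenetic arrays alone, as was Nefm among the neural markers. The calls of Eomes, Msx1 and Nefm therefore set signal against background. Fibroblast markers were higher in 4 of 5 and lower in 1 (sums 10869 to 11477 in androgenetic, 3651 to 4146 in parthenogenetic and 1786 to 2017 in fertilized cells), with Col1a1 undetected in fertilized cells. Vim and Col5a1 were the brightest of these in androgenetic cells, at 12.48 and 12.14 on the log2 scale. All 5 neural markers were higher (sums 7056 to 7237 in androgenetic, 5046 to 5416 in parthenogenetic and 2054 to 2099 in fertilized cells), and primitive endoderm markers were divided, 3 higher and 3 lower of 8. The part of these cell-type markers in the differences of Sp5, Axin2 and Wnt6 was not tested.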

How the data were processed

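Total RNA was labelled from 0.55 ug per sample and read with BeadStudio 3.1.3, per the labels' protocols and the submitters' processing notes. The authors deposited a linear intensity for 25697 probes on each array, not scaled between arrays, and a detection p-value for each, per the file headers. A second deposited table held log2 values for 12891 probes, which equal quantile-normalised log2 signals to within 0.000742. Gene names came from the platform's probe annotation (12145 probes), and 12141 matched RefSeq genes of GRCm38.p6.

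From the intensities, limma 3.58.1 in R 4.3.3 gave background correction from the detection p-values, an offset of 16 and quantile normalisation (neqc). The offset compresses differences of dim probes. A probe entered the tests where 2 or more of the 8 arrays detected it (p under 0.01), which left 12300 probes, and each gene took its probe with the highest mean. Each array detected 10623 to 11174 probes. Within-group correlations were at least 0.985, the lowest between fertilized replicates 2 and 3. The number of arrays limits the precision. The model had a mean for each group over all 8 arrays and 5 residual degrees of freedom. Its two-sided moderated tests were adjusted by Benjamini-Hochberg over those probes, with calls at an adjusted p under 0.05. The procedure was tested on simulated data. A fold against a group with no detected array is a lower bound, set against the level where detection begins.

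The members and gene lists were chosen with earlier results of these data known. Named WNT genes were up to 4 per list with the largest difference among those called with no overlap between groups. Genes most like Sp5 and Axin2 were the 5 with the highest correlation for each. Arrays of the same replicate number were not treated as pairs, since residual correlations of same-numbered arrays ran from -0.090 to 0.067. Alternatives were other background corrections, normalisations and filters, the deposited log2 table, a replicate block and leaving out each array.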

Additional observations from a re-analysis of the deposited data

How the results depend on the processing

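The counts of WNT genes called, 41, 23 and 39 in androgenetic over fertilized, parthenogenetic over fertilized and androgenetic over parthenogenetic cells, stayed within 1.5 times under the 19 alternatives run, at 28 to 43, 18 to 23 and 26 to 40. As shares of the 53 genes, the counts of 41, 23 and 39 were 77.4%, 43.4% and 73.6%, beside 74.7%, 40.6% and 71.1% of all genes. The lowest counts came with probes detected on all 8 arrays, which leaves fewer genes to test. There the shares were 75.7%, 48.6% and 70.3% of the WNT genes, beside 74.7%, 42.6% and 71.5% of all genes. Of the member probes, 2 were called in parthenogenetic over fertilized cells, Sp5 and Axin2. That count was 1 with probes detected on all 8 arrays, where Sp5 is not kept, 1 with only the arrays of the 2 groups compared, and 1 to 2 with each array left out in turn. With replicate number as a block, the counts were 41, 22 and 39 WNT genes and 2 member probes. Same-numbered arrays share a passage number, which the labels do not tie to a shared line, batch or day, and the block ended no call of a member.

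The Axin2 difference between parthenogenetic and fertilized cells ran from -1.13 to -0.73 over 18 alternatives, with adjusted p from 1.57e-05 to 0.00100. Without background correction, with an offset of 50 and in the authors' deposited log2 table, the differences between androgenetic and fertilized cells were 5.47, 6.03 and 5.51 for Sp5, 2.39, 2.59 and 2.40 for Axin2, and 3.68, 4.17 and 3.71 for Wnt6. Among named WNT genes, the Fzd10 call in parthenogenetic over fertilized cells was lost without parthenogenetic replicate 1, and Lrp6 in androgenetic over parthenogenetic cells was lost in 4 alternatives. In that last comparison Csnk1d was called lower (limma adjusted p = 0.0497), a call lost in 9 of 19 alternatives and changed in sign in 1. Its other probes ran there from -0.26 to 0.73. Taken as linear folds, the differences of some genes from fertilized cells shrank by over 1.5 times in at least 1 alternative, with no call lost. Their smallest log2 differences in androgenetic cells were 2.73 for Wnt4, 1.83 for Fzd2, 2.64 for Notum and -1.57 for Sfrp1. They were also -1.22 for Nkd2, 3.42 for Msx1, 3.22 for Tnfrsf19 and 1.03 for Cd44. In parthenogenetic cells they were 2.06 for Notum and -1.18 for Lrp6. With no filter on detection, Lef1 differed by 0.25 between parthenogenetic and fertilized cells (limma adjusted p = 0.450). Levels below 6.60 to 6.85 on the log2 scale are not separated from background, which limits Lef1 on all arrays, Wnt6 outside androgenetic cells and Sp5 in fertilized cells.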
